A study of Homo sapiens with 6 samples.

Results

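Genes named as voltage-gated potassium, calcium and sodium channels, with the subunits and relatives that share their names, were read by RNA-seq in YAPC, a cell line from a human pancreatic tumour, in 6 libraries. Members were chosen by symbol alone: KCN followed by a letter and a digit, CACN followed by A, B or G, or SCN followed by digits and A or B. The letters matched 138 names in the table, of which 15 with a hyphen or an OT ending (antisense and overlapping transcripts) were set aside, leaving 123 of 25442 genes. The name rule is wider than the label of voltage gating. It takes in 37 genes of the inward rectifier (KCNJ), two-pore-domain (KCNK) and calcium-, sodium- or pH-gated (KCNN, KCNT, KCNU) potassium channel classes, which do not open on voltage in the classical way. Of the 123 names, 121 are protein-coding genes in the annotation, KCNQ1DN is a long non-coding RNA, and KCNJ12 and KCNJ18 share a single merged entry.

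The 6 libraries came from 2 groups of 3. All cells were YAPC cells made for Dox-inducible expression and kept in Dox for 6 days, so the agent is shared by both groups. The iGLI2 cells carried the pRetroX-Tight-Puro plasmid with human GLI2, a transcription factor of the Hedgehog pathway, and the iEV cells carried the same plasmid empty. The labels do not say whether replicates came from separate cultures, so p-values measure only the spread between these libraries, which may be technical. The targeted gene read 0.466, 0.412 and 0.344 FPKM in iEV replicates 1 to 3 and 94.5, 207 and 195 FPKM in iGLI2 replicates 1 to 3, a log2 fold change of 6.81 ± 0.30 (SE, limma adjusted p = 0.000162), so every library matched its label. The model is a plasmid-driven level in 1 cell line. FPKM, the unit of all levels here, is fragments scaled by transcript length and by library size.

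Voltage-gated channels open when the membrane depolarizes. Potassium channels carry current outward and return the membrane to rest, sodium channels start fast impulses in nerve and muscle, and calcium channels admit an ion that is itself a messenger. Each pore-forming subunit works with auxiliary subunits that set its place in the membrane and its gating. In most epithelia, potassium channels are best known for setting the resting potential that drives secretion and for regulating cell volume.

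Sequences upstream of 4 of the genes that the results turn on are shown because these genes had large or opposite changes. They are the 250 bases before the RefSeq transcription start (GRCh38.p14), each found exactly once in GRCh37, printed 5′ to 3′ on the gene's strand with the letters ACCACCC in capitals, the core of the motif that GLI proteins bind. CACNA1E lies on the plus strand (GRCh37 chr1:181452403-181452652), KCNN4 on the minus strand (chr19:44285126-44285375), KCNJ2 on the plus strand (chr17:68165423-68165672) and KCNK5 on the minus strand (chr6:39197252-39197501).
CACNA1E: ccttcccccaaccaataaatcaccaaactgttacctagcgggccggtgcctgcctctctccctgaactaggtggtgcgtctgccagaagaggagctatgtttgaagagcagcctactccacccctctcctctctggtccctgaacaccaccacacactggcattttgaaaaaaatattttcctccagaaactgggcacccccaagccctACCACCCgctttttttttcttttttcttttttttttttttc
KCNN4: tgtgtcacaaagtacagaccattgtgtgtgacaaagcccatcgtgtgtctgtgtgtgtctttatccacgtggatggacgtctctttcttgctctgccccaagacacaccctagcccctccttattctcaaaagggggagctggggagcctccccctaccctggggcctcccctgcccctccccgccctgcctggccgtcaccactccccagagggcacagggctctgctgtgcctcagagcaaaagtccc
KCNJ2: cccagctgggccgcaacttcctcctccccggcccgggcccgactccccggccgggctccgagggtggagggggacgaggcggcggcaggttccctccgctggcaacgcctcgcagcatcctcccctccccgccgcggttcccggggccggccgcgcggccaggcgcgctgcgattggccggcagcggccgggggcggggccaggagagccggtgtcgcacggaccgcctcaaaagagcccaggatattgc
KCNK5: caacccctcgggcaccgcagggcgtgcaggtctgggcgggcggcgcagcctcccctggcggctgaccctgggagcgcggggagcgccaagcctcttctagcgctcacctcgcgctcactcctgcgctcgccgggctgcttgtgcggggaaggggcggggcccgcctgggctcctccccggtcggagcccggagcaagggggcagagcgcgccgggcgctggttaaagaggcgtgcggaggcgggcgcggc

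The 4 windows differed in composition. KCNJ2 and KCNK5, which moved in opposite directions below, both had GC-rich windows, with 77.6% and 77.2% GC and 32 and 31 CpG dinucleotides. CACNA1E had 48.8% GC and 4 CpG, and KCNN4 had 60% GC and 5 CpG, against medians of 58.0% GC and 11 CpG over all 35093 RefSeq promoters and 64.8% and 15 over the 125 promoter entries of the 87 channel genes matched by symbol. The RefSeq start of KCNN4 lies 284 bases inside the start given in the expression table, so its window is not upstream of the whole locus as deposited. The longer consensus GACCACCCA, searched on both strands, was in 70 promoters (0.199%) and in 0 of the 125 channel entries. The core ACCACCC, which the longer consensus contains and which was chosen after the sequences were seen, was in 1457 promoters (4.15%) and in 4 channel entries (3.2%), those of CACNA1E, KCNE1 and KCNK3. In CACNA1E it stands 41 bases before the start. A match of letters describes the window and is not a binding site. Promoters of 7 of the 23 expressed channel genes had no entry, CACNA2D4, CACNG4, CACNG8 and KCNQ1 among them.

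Most channel genes were silent in this line. Of the 123, 23 had a mean of at least 1 FPKM in a group and 100 did not, and 67 of the silent genes stayed under 0.1 FPKM in every library. The KCNA family (8 genes), the KCNB family (2 genes) and the KCND family (3 genes), the classical delayed rectifier and A-type potassium channels of excitable cells, had no expressed member. By class, 4 of 31 pore-forming Kv names, 2 of 10 Kv modifiers and 1 of 5 KCNE subunits were expressed. The 31 include the non-coding KCNQ1DN, placed in that class by its name. Also expressed were 1 of 7 KCNN, KCNT and KCNU genes, 2 of 15 inward rectifiers and 3 of 15 two-pore-domain genes. For calcium channels it was 1 of 10 alpha1 pores, 2 of 4 alpha2delta, 2 of 4 beta and 2 of 8 gamma subunits. The gamma count includes CACNG8, which was above 1 FPKM in iEV replicate 1 only. For sodium channels, 2 of 10 alpha pores and 1 of 4 beta subunits were expressed.

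**Figure D1:**
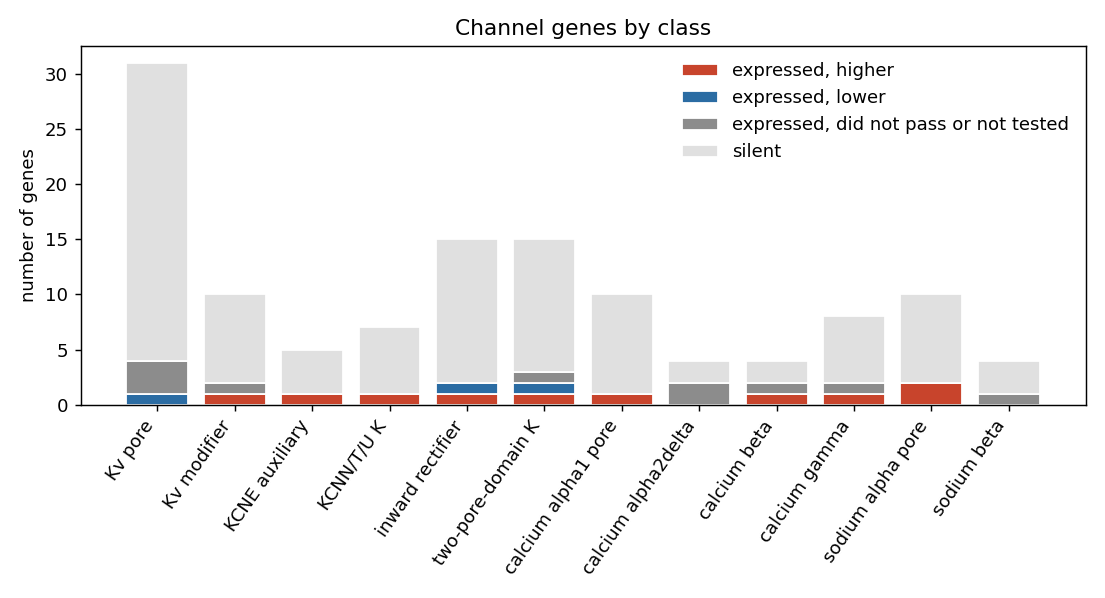
Number of channel genes (vertical axis) in each of 12 classes, stacked as expressed and higher in iGLI2, expressed and lower, expressed without a call or not tested, and silent. The pore-forming Kv class holds the most silent members, 27 of 31 with the non-coding KCNQ1DN counted. The 13 calls fall in 10 of the classes.

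The test, limma on log2(FPKM + 1), two-sided, with Benjamini-Hochberg adjustment over the 12493 genes averaging 1 FPKM or more across all libraries, covered 22 of the 23 expressed genes. KCNC4 was the one left out. Of the 22 tested, 13 passed at an adjusted p under 0.05 (59.1%), 10 higher and 3 lower in iGLI2. Without iEV replicate 2 the count was 8 (6 higher, 2 lower), and it was also 8 (6 and 2) without iEV replicate 3. Over all genes tested, 21.9% passed, 10.1% higher and 11.8% lower. The median log2 fold change was 0.33 over the channel genes and -0.015 over all genes. CACNA1E, SCN9A, KCNJ5 and CACNG8 entered the test with a mean under 1 FPKM in one group, so they could enter only through the other. Among the 18 with both group means of at least 1 FPKM, 10 passed, 8 higher and 2 lower. The share of all genes passing under that stricter filter is not given here, and the 21.9% does not stand for it. Groups did not overlap for 18 of the 22 tested channel genes, against 42.0% of all genes tested. The 13 that passed were all among the 18, but overlap is read from the same values as the test and is no separate support. With the small RNA genes left out and the libraries rescaled, the share of calls that were higher over all genes went from 46.0% to 59.4%. Among the channel calls this share was 76.9% as deposited, and 11 of 14 channel calls were higher in the rescaled fit. In bulk RNA, fewer cells with a transcript and less of it per cell cannot be told apart.

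**Figure D2:**
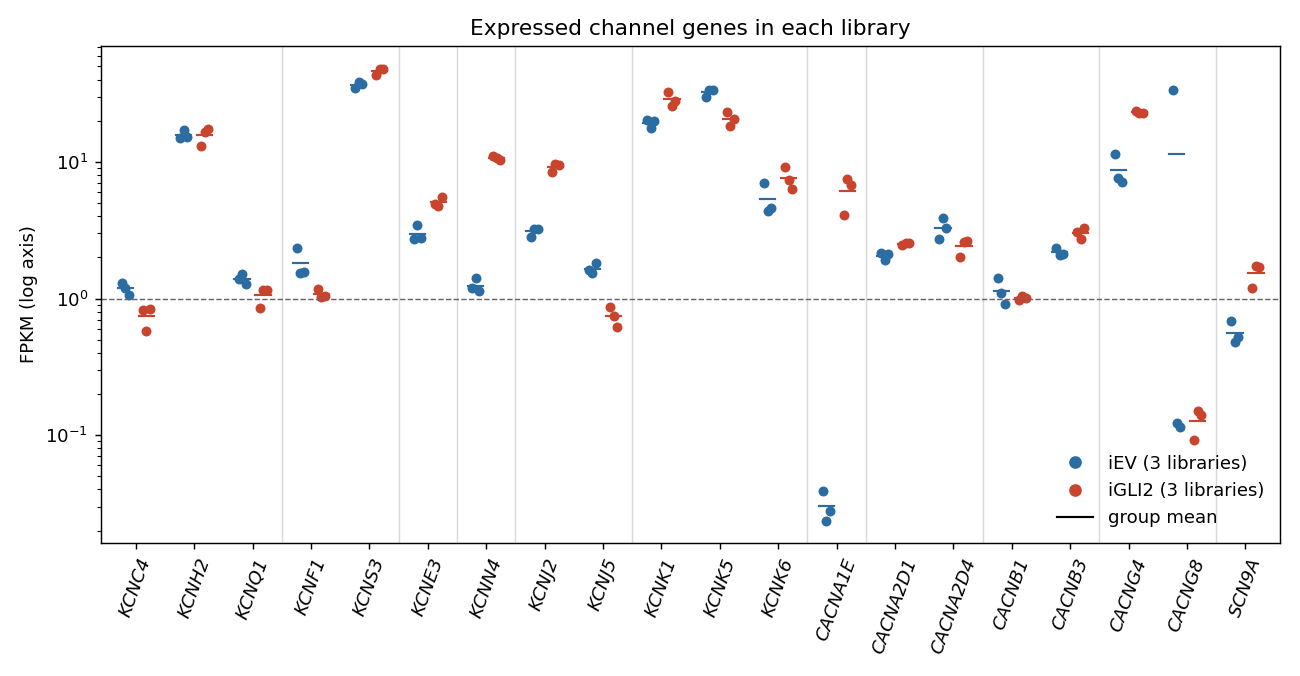
FPKM (log axis) of each of 20 expressed channel genes in the 6 libraries, points for iEV and iGLI2 and short lines for the group means, with a dashed line at 1 FPKM. CACNA1E moves from under 0.04 to over 4 FPKM, KCNN4 from under 1.5 to over 10 FPKM, and CACNG8 stands high in iEV replicate 1 only.

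Among calcium channel pores, CACNA1E rose from near silence. It encodes the pore of the R-type calcium channel, known from neurons and endocrine cells. Its level was 0.0392, 0.0237 and 0.0276 FPKM in iEV and 4.12, 7.53 and 6.81 FPKM in iGLI2. All 3 iGLI2 libraries lay far above all 3 iEV libraries, with replicate 1 the lowest of its group. On the fitted scale the difference was 2.76 ± 0.20 (SE, 95% interval 2.28 to 3.25, limma adjusted p = 0.000683). The pseudocount sets that size: the group means of 0.0302 and 6.15 FPKM have a ratio of 204. The gene spans 1:181452686-181775921 (hg19, plus strand). The other 9 alpha1 genes stayed silent in both groups, summing to 0.426, 0.530 and 0.593 FPKM in iEV and 0.435, 0.594 and 0.716 in iGLI2, ranges that overlap. CACNA1E therefore made up 8.44%, 4.28% and 4.44% of the summed alpha1 FPKM in iEV and 90.5%, 92.7% and 90.5% in iGLI2.

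Of the 6 auxiliary calcium subunits tested, 2 rose and 4 did not pass. CACNG4, a gamma subunit known as a regulator of AMPA receptors, read 11.5, 7.66 and 7.19 FPKM in iEV and 23.5, 23 and 22.9 FPKM in iGLI2. The iGLI2 libraries were tight and all above iEV, and iEV replicate 1 was the highest of its group. Its mean was 2.63 times higher (log2 fold change 1.33 ± 0.16, SE, limma adjusted p = 0.00364). Of its exonic bases, 6.39% are shared with another annotated gene. CACNG4 (17:64960980-65029518) lies between CACNG5, which was at 0 in all libraries, and CACNG1 at 0.0258 and 0.0510 FPKM in the group means, 11134 bases away, so it was the one expressed gene of the 3. CACNB3, a beta subunit that brings alpha1 pores to the membrane, read 2.34, 2.1 and 2.13 FPKM in iEV and 3.06, 2.71 and 3.31 FPKM in iGLI2, higher by 0.34 ± 0.09 (SE, adjusted p = 0.0407). The call was lost on leaving out any 1 of the 6 libraries, at adjusted p between 0.0524 and 0.135. CACNB1 (1.15 ± 0.258 and 1.01 ± 0.0416 FPKM, SD, n = 3) and the alpha2delta genes CACNA2D1 (2.06 ± 0.135 and 2.52 ± 0.0507) and CACNA2D4 (3.29 ± 0.588 and 2.41 ± 0.348) did not pass, at adjusted p of 0.636, 0.101 and 0.141.

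CACNG8, another gamma subunit, cannot be read from these libraries. It stood at 33.8 FPKM in iEV replicate 1 and between 0.0921 and 0.15 FPKM in the other 5. The log2 fold change of -1.64 had a 95% interval from -4.95 to 1.67, and it was 0.01 without iEV replicate 1. The annotation places MIR935 inside its exons, over 1.03% of the exonic bases, and whether reads of that microRNA gene entered the value was not tested.

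Among sodium channel pores, SCN9A rose in iGLI2. This channel of pain-sensing neurons read 0.681, 0.482 and 0.527 FPKM in iEV and 1.19, 1.72 and 1.71 FPKM in iGLI2, higher by 0.69 ± 0.13 (SE, adjusted p = 0.0141), without overlap. The call was lost without iEV replicate 2, at adjusted p = 0.0551. The deposited locus of SCN9A (2:166813928-167232497) is shared with SCN1A, and 11.4% of its exonic bases overlap SCN1A-AS1. The library kit does not mark strand, so reads of the antisense gene cannot be separated.

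Potassium channels outside the voltage-gated classes held the next large changes. KCNN4, a calcium-activated potassium channel of blood cells and secretory epithelia, read 1.19, 1.41 and 1.13 FPKM in iEV and 11.1, 10.6 and 10.3 FPKM in iGLI2. Its replicates were close together and the groups far apart. The mean was 8.57 times higher (log2 fold change 2.38 ± 0.07, SE, 95% interval 2.20 to 2.56, limma adjusted p = 0.000111), and KCNN4 (19:44270685-44285409, minus strand) was the only expressed gene of its class of 7. KCNJ2, a strong inward rectifier that stabilizes the resting potential of muscle, read 2.83, 3.25 and 3.25 FPKM in iEV and 8.5, 9.59 and 9.44 FPKM in iGLI2. It was 2.95 times higher (1.31 ± 0.08, SE, adjusted p = 0.000381), and the highest iEV value lay well below the lowest iGLI2 value.

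KCNJ2 had a neighbour that moved the same way. The antisense gene KCNJ2-AS1, one of the 15 names set aside, read 0.530, 0.823 and 0.842 FPKM in iEV and 3.11, 3.74 and 3.76 FPKM in iGLI2 (log2 fold change 1.39 ± 0.12, SE, adjusted p = 0.000971). It was the only one of the 15 with a group mean of at least 1 FPKM. The genes share 3.32% of the exonic bases of KCNJ2, and without strand their reads cannot be told apart there. On the other side, KCNJ16, 33930 bases from KCNJ2, averaged 0.0072 and 0.029 FPKM. KCNJ5, an inward rectifier opened by G proteins, went the other way, from 1.61, 1.53 and 1.82 FPKM in iEV to 0.870, 0.747 and 0.615 FPKM in iGLI2, without overlap. It was 2.22 times higher in iEV (-0.61 ± 0.10, SE, adjusted p = 0.0110). Its deposited locus (11:128761313-128787951) is shared with C11orf45, which fell from 5.98 ± 0.167 to 4.16 ± 0.415 FPKM (SD, n = 3, adjusted p = 0.0123). In the annotation, 0.0% of the exonic bases of KCNJ5 are shared with another gene.

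The two-pore-domain genes, which carry background potassium current, were the most abundant class, and 2 of its members exchanged rank. KCNK1 rose from 20.2, 17.8 and 19.9 FPKM to 32.5, 25.7 and 27.8 FPKM (0.54 ± 0.10, SE, limma adjusted p = 0.0154). KCNK5, a background channel opened by alkaline pH and linked to volume regulation, fell from 30.1, 33.9 and 33.5 FPKM to 23.2, 18.2 and 20.5 FPKM (-0.64 ± 0.10, SE, adjusted p = 0.00927). Within every library the ratio of KCNK1 to KCNK5 was under 1 in iEV (0.669, 0.525 and 0.594) and over 1 in iGLI2 (1.40, 1.42 and 1.35). A ratio within a library does not depend on how libraries were scaled. The call for KCNK1 was lost without iEV replicate 2 (adjusted p = 0.0684), iEV replicate 3 (0.0583) or iGLI2 replicate 3 (0.0539). KCNK6 read 7, 4.36 and 4.57 FPKM in iEV and 9.18, 7.33 and 6.32 FPKM in iGLI2, groups that overlap, and did not pass (adjusted p = 0.151).

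The expressed voltage-gated potassium pores KCNQ1 and KCNH2 did not pass the test. KCNQ1, the pore that pairs with KCNE3 in epithelia, read 1.40 ± 0.110 and 1.05 ± 0.171 FPKM (SD, n = 3, limma adjusted p = 0.180). It shares its locus with KCNQ1OT1, which averaged 0.0258 FPKM in iEV and 0.0198 FPKM in iGLI2. Of the exonic bases of KCNQ1, 3.98% are shared with KCNQ1-AS1 and KCNQ1OT1.

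KCNE3 itself, a small subunit that holds KCNQ1 open, rose from 2.72, 3.46 and 2.78 FPKM to 4.93, 4.74 and 5.57 FPKM. The groups did not overlap (0.61 ± 0.10, SE, adjusted p = 0.01), though 16.9% of its exonic bases are shared with another annotated gene and the adjusted p was 0.0503 without iEV replicate 3. KCNH2, the rapid delayed rectifier of the heart, overlapped between groups, with 15.0, 17.0 and 15.3 FPKM in iEV and 13, 16.5 and 17.4 FPKM in iGLI2 (-0.02, 95% interval -0.30 to 0.27, adjusted p = 0.929). KCNC4, a fast Kv pore, read 1.30, 1.2 and 1.07 FPKM in iEV and 0.830, 0.574 and 0.842 FPKM in iGLI2, groups that did not overlap. Its mean over the 6 libraries was under 1 FPKM, and the fits that held it gave -0.33 with adjusted p of 0.0529 and 0.0777.

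KCNS3 had the highest level of any channel gene in both groups. It is an electrically silent subunit that modifies KCNB pores. It read 34.6, 38.8 and 37 FPKM in iEV and 43.6, 48.3 and 47.9 FPKM in iGLI2, higher by 0.33 ± 0.07 (SE, limma adjusted p = 0.0251). The groups did not overlap, but the call held in only 1 of the 6 fits that leave out a library, without iGLI2 replicate 1. The adjusted p in the other 5 was between 0.0603 and 0.0960. No KCNB pore was expressed, and KCNB2 was above 0 in 1 library, at 0.0147 FPKM. KCNF1, another modifier, read 2.36, 1.55 and 1.57 FPKM in iEV and 1.17, 1.03 and 1.04 FPKM in iGLI2, without overlap, and did not pass (-0.43 ± 0.13, SE, adjusted p = 0.0700).

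**Figure D3:**
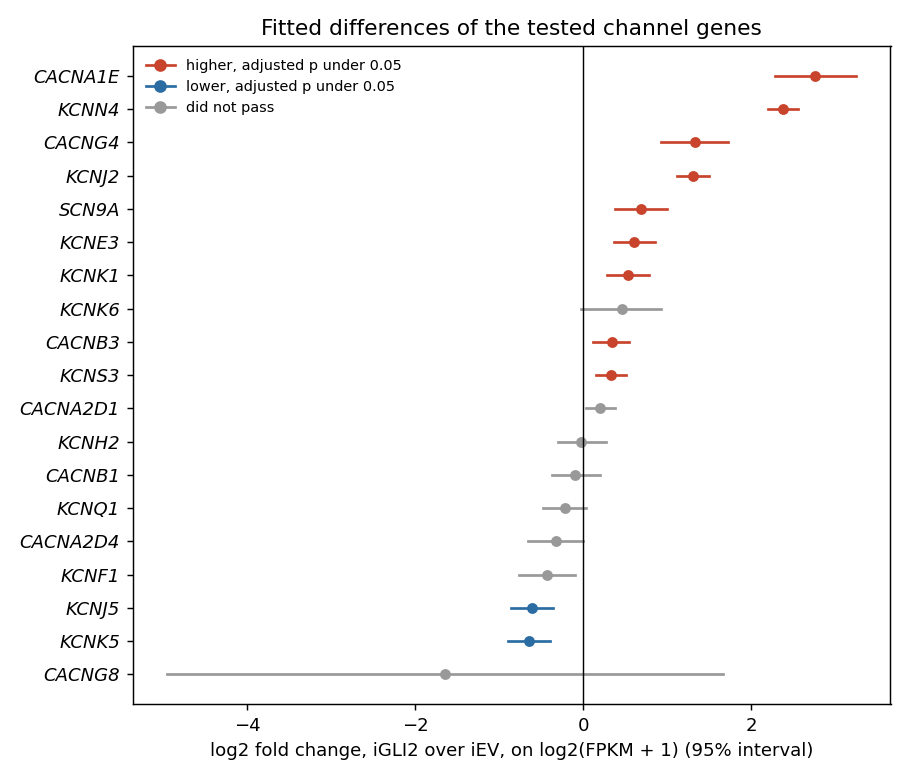
Fitted log2 fold change of iGLI2 over iEV on log2(FPKM + 1) (horizontal axis) for 19 tested channel genes, ordered by size, with 95% intervals. CACNA1E (2.76) and KCNN4 (2.38) stand at the top, KCNK5 (-0.64) and KCNJ5 (-0.61) lie below 0, and the interval of CACNG8 spans -4.95 to 1.67.

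The order of levels changed between the groups. In iEV it ran KCNS3 (36.8 FPKM), KCNK5 (32.5), KCNK1 (19.3) and KCNH2 (15.8), with no overlap between neighbours among these 4 (CACNG8 apart, for its single library). In iGLI2 it ran KCNS3 (46.6), KCNK1 (28.6), CACNG4 (23.1), KCNK5 (20.6) and KCNH2 (15.6), with CACNG4 and KCNK5 overlapping. KCNN4 (10.7) followed without overlap, and then KCNJ2, KCNK6, CACNA1E and KCNE3, from 9.18 down to 5.08 FPKM, each overlapping its neighbour. With CACNG8 left out of the total, KCNS3, KCNK5, KCNK1 and KCNH2 together held 64.3%, 66.5% and 67.0% of channel FPKM in iEV and 55.9%, 53.4% and 54.5% in iGLI2. With CACNG8 counted, the share in iEV replicate 1 was 52.8%, below all iGLI2 libraries, so the separation of the groups rests on leaving that gene out. The summed channel FPKM without CACNG8 was 155, 162 and 158 in iEV and 201, 204 and 208 in iGLI2, with no overlap, and the silent genes added 6.58 to 8.04 and 6.60 to 9.37 FPKM. These sums were not tested.

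**Figure D4:**
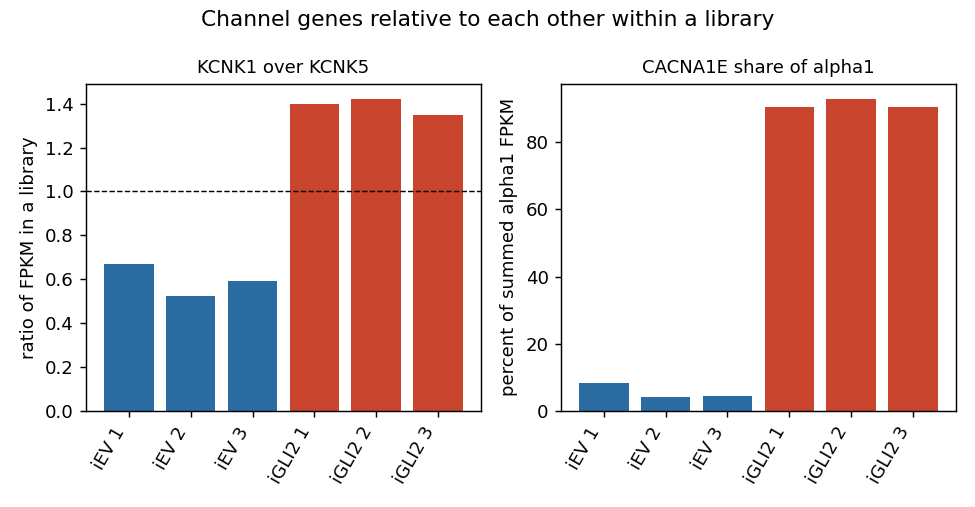
Ratio of KCNK1 to KCNK5 and share of CACNA1E in the summed alpha1 FPKM (vertical axes), 1 bar per library. KCNK1 over KCNK5 crosses the dashed line at 1 between iEV (0.525 to 0.669) and iGLI2 (1.35 to 1.42), and CACNA1E goes from under 10% to over 90%.

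The expressed genes lay on 9 chromosomes, and 29 pairs of channel genes stood less than 500000 bases apart (hg19). KCNE3 is at 11:74165886-74178600, CACNB3 at 12:49208215-49222726, KCNJ2 at 17:68165676-68176183, KCNK1 at 1:233749750-233808258, KCNK5 at 6:39156747-39197251 and KCNS3 at 2:18059114-18114225. Some expressed genes had a silent channel gene beside them. KCNK17, 69526 bases from KCNK5, averaged 0.1292 FPKM in iEV and 0.3332 FPKM in iGLI2, and SCN7A, 27586 bases from SCN9A, averaged 0 and 0.0036 FPKM.

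Among the 100 silent genes, 6 reached 0.5 FPKM in a library. KCNG1, a Kv modifier, read 0.132, 0.194 and 0.203 FPKM in iEV and 0.219, 0.819 and 0.905 FPKM in iGLI2, with replicate 1 of iGLI2 close to iEV. KCNN2, KCNJ11, KCNE2 and KCNK7 lay between 0.139 and 0.695 FPKM. The groups overlapped for KCNJ11 and KCNK7 and did not for KCNN2, with all iEV libraries above, and KCNE2, with all iGLI2 libraries above. Of the exonic bases of KCNE2, 65.4% are shared with another annotated gene, so its reads may not be its own. A further 14 were listed at 0 in all libraries, among them 6 KCNA genes, CACNA2D3, CACNG3, CACNG5 and KCND3. Such a 0 does not show absence. Among the ductal markers below, KRT8 and KRT18 are also listed at 0 in all libraries, while KRT19 averaged 621 FPKM in iEV and 548 FPKM in iGLI2. Single zeros occur too: 14 genes (small RNA genes aside) are at 0 in a library and at 5 FPKM or more in another of the same group. In a fit with no filter on low values, 109 channel genes entered, and 5 of the 86 silent ones passed, against 15.1% of all 20035 genes in that fit. SCN3B and CACNA1C were higher and SCN4A, SCN4B and KCNH4 lower. SCN4A, the sodium channel of skeletal muscle, read 0.334, 0.404 and 0.4 FPKM in iEV and 0.0293, 0.104 and 0.127 FPKM in iGLI2 (limma adjusted p = 0.00576). SCN4B, an auxiliary sodium subunit, read 0.165, 0.146 and 0.167 FPKM in iEV and 0.0520, 0.0702 and 0.0658 FPKM in iGLI2 (adjusted p = 0.00734), while SCN3B, of the same family, read 0.105, 0.126 and 0.0975 FPKM and then 0.261, 0.230 and 0.227 FPKM (0.00737). KCNH4, a relative of KCNH2, read 0.0331, 0.0467 and 0.0512 FPKM in iEV and was listed at 0 in every iGLI2 library (0.0310). CACNA1C, an L-type alpha1 pore, averaged 0.0259 and 0.0675 FPKM (0.0365). All 5 were under 0.5 FPKM in every library, and the number of reads behind such values is unknown.

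Genes that work with these channels but do not carry the names were listed separately. Of 45 such partners and related channels, 44 were in the table and 15 were tested, with 3 higher, 3 lower and 9 not called, where 10.1% of all genes tested were higher and 11.8% lower. KCNAB1, a Kv beta subunit, rose from 1.01 ± 0.0455 to 2.29 ± 0.219 FPKM (SD, n = 3, adjusted p = 0.00379), the proton channel HVCN1 from 1.11 ± 0.0473 to 1.76 ± 0.102 FPKM (0.0224) and ANK3, an ankyrin that anchors sodium channels, from 5.47 ± 0.159 to 7.05 ± 0.1 FPKM (0.0114). TPCN1, an endolysosomal channel, fell from 29.4 ± 2.11 to 17.2 ± 1.44 FPKM (0.00316), NEDD4L, a ubiquitin ligase that removes epithelial sodium channels, from 20 ± 1.40 to 12.1 ± 0.0233 FPKM (0.00169) and SCNN1B, a subunit of that channel, from 3.05 ± 0.463 to 1.00 ± 0.257 FPKM (0.00465). SCNN1A (53.5 and 49.1 FPKM) and the BK pore KCNMA1 (0.939 and 1.10 FPKM) did not pass, at adjusted p of 0.482 and 0.634.

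The cell label was checked against markers. KRT7, KRT19, EPCAM and CDH1 were high in all libraries, with EPCAM (405 to 523 FPKM in the group means, adjusted p = 0.00709) and CDH1 (53.2 to 68.9, adjusted p = 0.0169) higher in iGLI2, and the ductal list summed to between 1890 and 2044 FPKM in iEV and between 1728 and 2010 in iGLI2, with KRT8 and KRT18 listed at 0. No neuroendocrine (0 of 6) or muscle (0 of 6) marker reached 1 FPKM, although CACNA1E and KCNJ2 are best known from such cells. Of 5 neuronal markers, TUBB3 and MAP2 were expressed, RBFOX3, SNAP25 and STMN2 were at or near 0, and the list summed to 17.2 to 22.4 FPKM in iEV and 15.4 to 21.9 in iGLI2. MAP2 alone rose, from 2.75 ± 0.165 to 5.43 ± 0.310 FPKM (SD, n = 3, adjusted p = 0.00138). The fibroblast list went from 1.36 to 1.57 FPKM up to 2.31 to 3.02 FPKM through COL1A1, with DCN at 0 and COL1A2, COL3A1, PDGFRB and LUM near it. The leukocyte list (CD68 alone of 5 above 1 FPKM) summed to 3.30 to 3.51 and 2.91 to 3.26 FPKM, and the endothelial list (0 of 3) to 0.387 to 0.411 and 0.233 to 0.347 FPKM. The part of EPCAM, CDH1, MAP2, COL1A1 or the other markers in the channel results was not tested.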

How the data were processed

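RNA-seq was analysed for 6 YAPC libraries, 3 iEV and 3 iGLI2, grouped by the plasmid the labels name. Per the methods and the submitters' processing notes, the authors used Trimmomatic for trimming, TopHat2 for alignment to hg19 and Cuffdiff 2.1.1 for comparison; the annotation, the scaling and the treatment of reads with several matches are not given in the sources used here. The deposited table names no unit, and its values were read as FPKM from their form. Total FPKM was 981344 to 1082687 in iEV and 803149 to 889559 in iGLI2, of which the short RNA gene MIR4461 held 42.6% to 45.4% and 35.7% to 37.7%. The reads behind a value are unknown, and no counting interval is given.

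Of 27024 entries, 1252 off the primary chromosomes and 330 with a higher entry of the same name were dropped, leaving 25442 genes. Starts in the table count from 0 and were raised by 1. The test was limma 3.58.1 (R 4.3.3) applied to log2(FPKM + 1), with an intensity trend, condition as the only term and Benjamini-Hochberg adjustment over the 12493 genes averaging 1 FPKM or more, called at 0.05. Fold changes on this scale understate the change of low genes. An exact permutation test of 3 against 3 cannot go below 0.1. The test was tried on simulated data with independent noise in each library. The outcome is not given here and is not used as support for the calls. Tables and plots used Python 3.11.15, numpy 2.4.6, pandas 2.3.3 and matplotlib 3.10.9. Overlaps come from GENCODE lifted to GRCh37.

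Genes named in the text are expressed members, silent members with at least 0.5 FPKM in a library, and list genes, apart from a few members that enter the counts, sums and shares but are not reported here by name; neighbours, other silent genes and the 4 promoters were picked after their values were seen. The members and lists were chosen with earlier results of these data known. Alternatives were other scalings, pseudocounts and filters, blocks, single libraries left out, stricter thresholds and no trend. Proteins, which the plan would have printed, are not analysed here.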

Additional observations from a re-analysis of the deposited data

How the results depend on the processing

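Of 201 results for the 13 channel genes that passed, over 16 alternative fits, 179 kept direction and call, 22 kept direction but not the call, and 0 reversed. In all, 7 passed in every fit that held them, CACNA1E, KCNJ5, CACNG4, KCNJ2, KCNN4 and KCNK5 among them. Against 13 calls (10 higher, 3 lower), there were 6 (5 and 1) at a mean of at least 5 FPKM, where fewer genes enter. There were 6 (5 and 1) at an adjusted p under 0.01 and 5 (4 and 1) at 2-fold. With no filter on low values, 17 of the 109 channel genes that entered passed, 11 higher and 6 lower. In that fit 15.1% of all 20035 genes passed. Leaving out 1 library gave 8 to 13 calls, 6 to 10 higher and 2 to 3 lower, the fewest without iEV replicate 2 or iEV replicate 3. The median log2 fold change of 0.33 was 0.38 with small RNA genes left out and libraries rescaled, 0.39 with a pseudocount of 0.1, 0.00 with no filter, 0.46 at a mean of at least 5 FPKM, and 0.28 to 0.33 with a library left out. GLI2, read across these fits after the data were seen, was 6.60 to 7.17 with a library left out. Among genes that did not pass, KCNH2 became 0.06 with small RNA genes left out, 0.03 without iEV replicate 2 and 0.10 without iGLI2 replicate 1, and without iEV replicate 1 CACNB1 became 0.00 and CACNG8 0.01. With a library left out these 3 ranged from -0.10 to 0.10, -0.17 to 0.00 and -2.47 to 0.01. Quantile normalization and a block on the digit in the sample codes lost CACNB3, and the latter KCNS3. The cause of these changes was not tested.

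Replicate numbers were not taken to pair the samples. Each library's deviations from its group mean, on log2(FPKM + 1), were correlated between the groups over the genes tested. Those correlations do not settle whether the numbers pair the samples, and they are not correlations of the levels themselves. Deviations of same-numbered libraries correlated at 0.204, 0.0919 and 0.0276, the best match for iEV replicates 1 and 3. For iEV replicate 2 the best match was iGLI2 replicate 3 (0.117). The other differently numbered pairs correlated at -0.193 to -0.0121. With the replicate block, 16 channel genes passed, 11 higher and 5 lower, adding CACNA2D4, KCNF1 and KCNK6 to the 13. Among the alternative fits, the share of all genes that passed is given only for the fit with no filter. Whether the other counts of channel calls moved with that share is therefore not shown.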
